A study of Caenorhabditis elegans with 2 samples.

Results

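The peaks described here are those of eGFP-tagged NHR-11 that lay close together on the genome of Caenorhabditis elegans. Each chromosome was divided into fixed bins of 20000 bp, and every peak of the authors' thresholded list whose summit fell in a bin with at least 3 such summits was kept. This gave 759 of the 2719 thresholded peaks (27.9%), in 205 of the 5016 bins (4.09%). They are called clustered peaks, and their bins dense bins. The other 1960 thresholded peaks were in bins with 1 or 2 summits. The clustered peaks were chosen by the positions of the authors' thresholded summits, so their number and closeness are a description of the list and carry no test.

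The data are from ChIP-seq, in which the DNA bound by a protein is pulled down with an antibody and sequenced, of whole L4 larvae, the last larval stage. There was a single group: strain OP305, of genotype unc-119(ed3) III with the transgene insertion wgIs305 that supplies tagged NHR-11, untreated as far as the labels say, of pooled males and females. The labels number 2 biological replicates, which are separate samples of that strain. The labels do not say which promoter drives the transgene. Input DNA and untagged animals were not compared here, so binding by NHR-11 and peaks common to many ChIP-seq experiments cannot be told apart. Sequencing depth is unknown, because a peak list carries no read counts.

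Nuclear hormone receptors are transcription factors that bind DNA through zinc fingers, and many respond to small lipophilic ligands. The family is greatly expanded in nematodes, and most worm members have no known ligand. A transcription factor can occupy several separate sites around or inside a single gene, in its promoter, its introns or the sequence between genes. Signals from whole animals sum over all tissues.

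The following windows, of 50 bases on either side of a summit, show what lay under clustered peaks. They were read from the plus strand of the NCBI RefSeq sequence of assembly WBcel235, which has the sequence of ce11, and each is centred on the strongest summit of its dense bin. The bins are among those with the most summits. Capitals mark matches to CACGTG or to GGGCGG on either strand.
mnk-1 intron chrII:10548967-10549067: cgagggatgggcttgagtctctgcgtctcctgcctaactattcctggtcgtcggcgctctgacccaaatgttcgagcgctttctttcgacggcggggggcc
nhr-19 intron chrII:9603598-9603698: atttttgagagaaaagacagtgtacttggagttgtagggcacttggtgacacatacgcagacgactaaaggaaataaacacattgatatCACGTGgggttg
mdl-1 promoter chrX:6742245-6742345: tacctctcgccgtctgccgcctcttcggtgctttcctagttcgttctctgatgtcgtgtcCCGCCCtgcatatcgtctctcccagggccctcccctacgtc
lin-14 intron chrX:11472107-11472207: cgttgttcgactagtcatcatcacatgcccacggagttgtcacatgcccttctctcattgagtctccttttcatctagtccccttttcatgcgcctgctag
The mnk-1 and mdl-1 windows each had a GC content of 61.4%, the lin-14 window 49.5% and the nhr-19 window 41.6%. The nhr-19 window held CACGTG, an E-box, and the mdl-1 window held GGGCGG on its minus strand. Neither mnk-1 nor lin-14 had a match to either sequence in these letters.

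The dense bin with the most summits was on chromosome II, from 10540001 to 10560000, with 11 clustered peaks. It contains mnk-1 (WBGene00011304), a homologue of the kinases that phosphorylate the cap-binding translation factor eIF4E in mammals, and it reaches pro-1, which encodes a WD-repeat protein of ribosomal RNA processing. The strongest summit, at 10549017 in an mnk-1 intron, had a signal of 350.8 in the pooled list, 168.3 in replicate 1 and 186.8 in replicate 2. Another intronic summit of the same gene, at 10552142, had 342.9 in the pooled list, 182 in replicate 1 and 156.7 in replicate 2. Signal here is the strength that the authors' files give each peak, in units the files leave unnamed. The other 9 summits of the bin ranged from 66.3 to 159.5, so the pair of intronic peaks stood above the rest of the bin in both replicates. Around mnk-1, counting its body and 1000 bp upstream, 7 clustered summits were placed, and 3 more lay in the intergenic sequence further upstream.

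**Figure D1:**
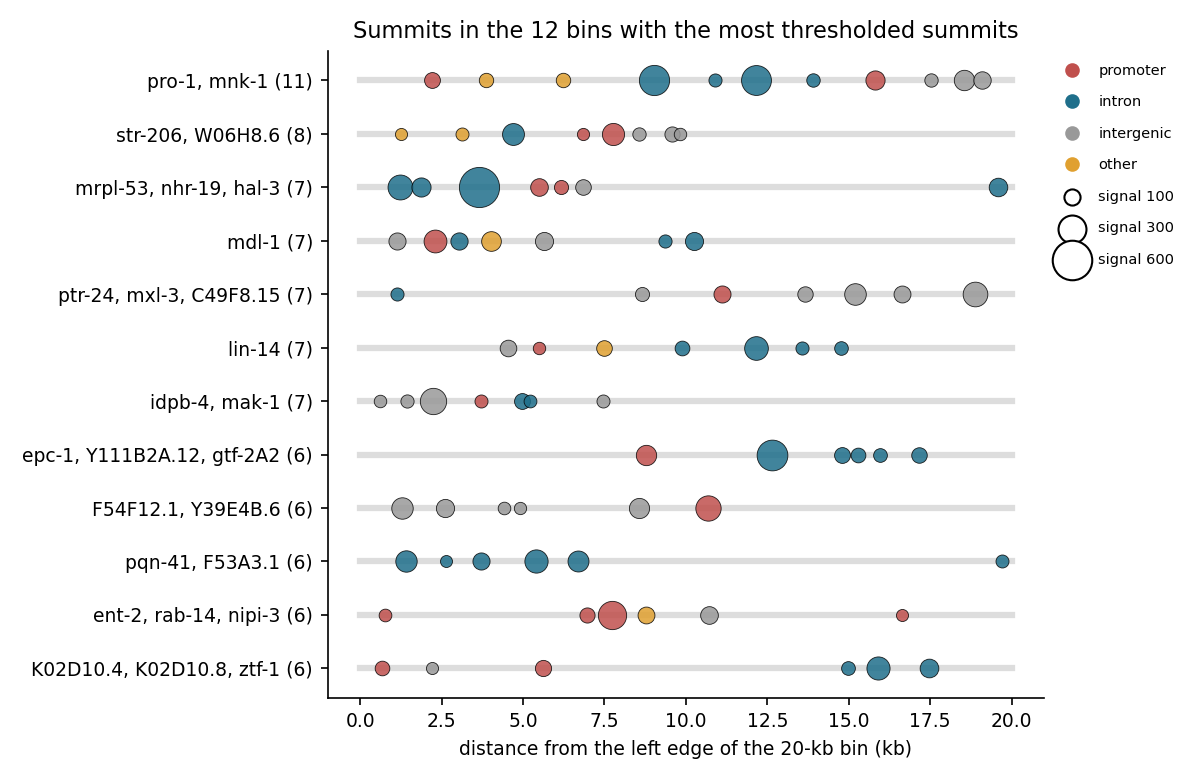
Clustered summits in the 12 bins with the most thresholded summits, from 11 in the top row down to 6, placed by distance in kb from the left edge of the bin. Circle area is proportional to pooled signal and colour gives the annotation class; row labels name up to 3 of the genes with the nearest starts, with the number of summits in parentheses. The largest circle is the nhr-19 intronic peak, at a signal of 621.

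Next in number of summits was the bin of W06H8.6 on chromosome V (6220001 to 6240000), with 8 clustered peaks and no role assigned to the gene here. Its strongest summits were at 6227779 in the promoter window, with a pooled signal of 188.6, 97.2 in replicate 1 and 92.5 in replicate 2, and at 6224684 in an intron, with a pooled signal of 183.9, 92.8 in replicate 1 and 102.8 in replicate 2. The other 6 were at 88.5 or below. Of the 8 peaks of this bin, only 4 were found in both replicates by the rule given below. The closest neighbouring summits of the bin were 222 bp apart.

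Of the 5 bins with 7 summits, that of nhr-19 (WBGene00003618), a further nuclear hormone receptor gene, held the strongest peak. Its intronic summit on II at 9603648, 1878 bp downstream of the start, had a pooled signal of 621, with 290.8 in replicate 1 and 328.6 in replicate 2. Another intronic summit at 9601237 had 238.8, with 108.1 in replicate 1 and 127 in replicate 2. The promoter summits of nhr-19, at 9605504 and 9606175, had 119.5 and 76.8, below both of these intronic peaks.

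Bins on chromosome X with 7 summits surrounded 3 regulators of transcription. At mdl-1 (WBGene00003163), a basic helix-loop-helix factor related to mammalian Mad proteins, the promoter summit at 6742295 had a pooled signal of 200.5, 116.8 in replicate 1 and 83.8 in replicate 2. All 7 summits of that bin had mdl-1 as the nearest start, although 2 lay in introns of abts-4. At mxl-3, a Max-like factor of the same class, the promoter summit (13351118) had 112.01, 37.4 in replicate 1 and 78.1 in replicate 2. Stronger summits of the mxl-3 bin were intergenic, at 179.5 (13355187) and 233.8 (13358866). At lin-14 (WBGene00003003), the heterochronic regulator of early larval cell fates, the strongest of 7 summits was in an intron 6597 bp downstream of the start (11472157, 215.5 in the pooled list, 101.1 in replicate 1 and 112.01 in replicate 2). The lin-14 promoter summit had 59.5, the lowest of that bin. The remaining bin with 7 summits held mak-1, a MAPK-activated protein kinase gene, with its strongest summit in the intergenic sequence 1830 bp upstream (II, 8742241, signal 265.9).

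Among the bins with 6 summits, those with the most summed signal were at Y111B2A.12, Y39E4B.6, pqn-41, nipi-3 and zfp-1. Y111B2A.12 had an intronic summit at III 12612639 with 363.2 in the pooled list, 170.8 in replicate 1 and 194.1 in replicate 2. Its promoter summit, shared with epc-1, a homologue of Enhancer of Polycomb, had 158.7. Y39E4B.6 differed in having the strongest of its 6 summits in the promoter (13070689, 246.2). All 6 summits of the bin that covers the far end of pqn-41, which encodes a glutamine-rich protein, were intronic, and that bin holds no protein-coding start. At nipi-3, a Tribbles-like pseudokinase gene of innate immunity, the promoter summit (X, 15607722) had 307.3 in the pooled list, 148.9 in replicate 1 and 163.1 in replicate 2. In the zfp-1 bin, 3 summits lay in introns of zfp-1, a homologue of the leukaemia-associated factor AF10, and the strongest had 205.7.

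Several genes carried clustered summits along their length. Counting a gene's body with 1000 bp upstream, 49 protein-coding genes held 3 or more clustered summits, 13 held 5 or more, and together the 49 took in 192 clustered peaks in 53 dense bins. Their median length was 12624 bp, against 2027 bp over all 19973 protein-coding genes. A longer gene has more room for summits, so length and count cannot be told apart here. The leader was ppfr-1 (WBGene00008878), a regulatory subunit gene of protein phosphatase 4, with 9 summits over 25884 bp. T28B11.1 followed with 8 summits and mnk-1 with 7. Then 6 each were at zfp-1, Y111B2A.12, lin-14 and hlh-30, the last a homologue of the lysosomal gene regulator TFEB. Genes with 5 were nhr-19, pqn-41, W06H8.6, scd-1, ZK470.2 and the DnaJ chaperone gene dnj-20. Those with 4 included daf-5, a Ski/Sno-related partner in dauer TGF-beta signalling; let-526, a subunit of SWI/SNF chromatin remodelling; and vhp-1, a MAP kinase phosphatase.

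**Figure D2:**
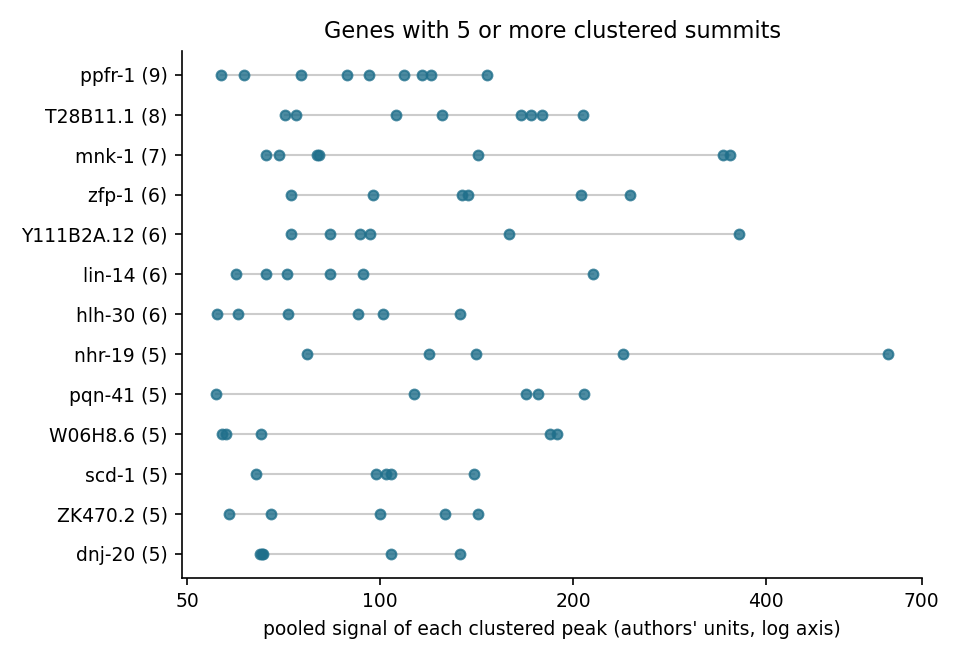
Pooled signal of each clustered peak (authors' units, log axis) at the 13 genes with 5 or more clustered summits in the gene body or 1000 bp upstream, with the number of summits in parentheses. Points are single peaks and grey lines join the weakest and the strongest of a gene; nhr-19 reaches 621, while the 9 peaks of ppfr-1 lie between 56.5 and 147.5.

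Clustered peaks shared genes more often than not within a bin. In 164 of the 205 dense bins (80%) the summits had fewer nearest genes than summits, and in 36 (17.6%) all had the same nearest gene. In the other 41 each summit had a gene of its own. Of the 406 bins with 2 summits, 133 (32.8%) had a single nearest gene, but a bin with fewer summits has fewer chances to share. In 49 dense bins (23.9%) no summit was in a promoter window, against 121 of the bins with 2 summits (29.8%), which have fewer chances to hold one. Neighbouring clustered summits were a median of 2215 bp apart (quartiles 1130.8 and 4633.5, range 199 to 17855, 554 gaps). Of these gaps 22 were no longer than the full width of a peak, so peaks of full width would overlap there.

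Within bins the signals were uneven. The strongest peak of a dense bin was a median of 2.24 times its weakest, with a range of 1.05 to 10.4 times. At least 1 of the 679 strongest thresholded peaks was in 139 dense bins (67.8%), and 55 bins held 2 or more. These 679 took in 27.4% of clustered peaks, near the 25% of all thresholded peaks and 24% of the others. A bin with several peaks has more chances to hold one of them. The strongest peak of the bin was in a promoter window in 75 bins, in an intron in 61 and in intergenic sequence in 50.

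Promoters held a smaller share of clustered summits than of other thresholded summits, a difference that was not tested. The promoter window, from 1000 bp upstream to 200 bp downstream of an annotated protein-coding start, held 268 of 759 clustered summits (35.3%, 95% Clopper-Pearson interval 31.9 to 38.8), against 1032 of 1960 others (52.7%, 50.4 to 54.9). Introns held 28.9% of clustered summits (25.7 to 32.2), against 16.9% of the others. Intergenic sequence held 26.5% of clustered summits (23.4 to 29.8), against 22.3% of the others. Clustered summits were a median of 1373 bp from the nearest start, against 683 bp for the others. Intervals here cover the counting of peaks only, and neighbouring peaks are not independent. The share in promoters was lower in bins with more summits, at 55.4% with 1 summit, 48.8% with 2, 41.4% with 3, 36.8% with 4 and 21.2% with 5 or more. The intronic share was 14.2% with 1 summit, 20.8% with 2, 26.4% with 3, 24.5% with 4 and 39.1% with 5 or more. When the starts of every annotated transcript were used, 46% of clustered and 59.2% of other summits were in promoters.

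**Figure D3:**
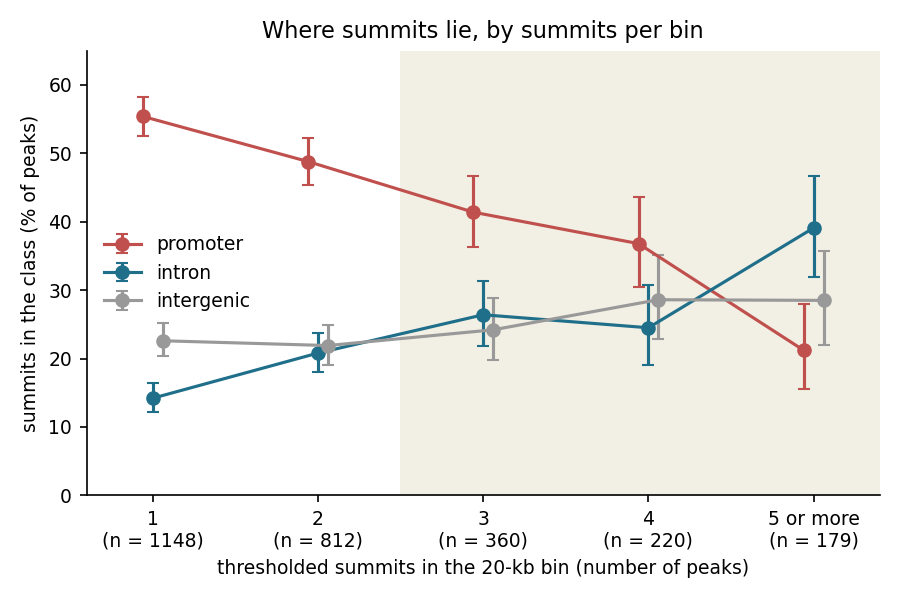
Share of summits in promoter windows, introns and intergenic sequence (% of peaks), by the number of thresholded summits in the 20000-bp bin, with 95% Clopper-Pearson intervals as bars. The shaded classes, with 3 or more summits, are the clustered peaks; the promoter share is 21.2% in bins with 5 or more summits and 55.4% in bins with 1.

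Gene starts were about as frequent in dense bins as in all bins. Dense bins had 3.96 ± 2.26 protein-coding starts (mean ± SD over bins), against 3.98 ± 2.29 over all bins, and 3.4 ± 2.03 where they held 4 or more summits. Coding sequence covered 24% of dense bins on average, against 24.6% of all bins, and introns 31.7% against 32.5%. Weaker pooled peaks, those of the pooled list below the thresholded ones, numbered 4.56 ± 2.99 per dense bin. Bins with 0, 1 and 2 thresholded summits had 1.74 ± 1.7, 2.54 ± 2.01 and 3.26 ± 2.35. The spreads of neighbouring classes overlap.

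**Figure D4:**
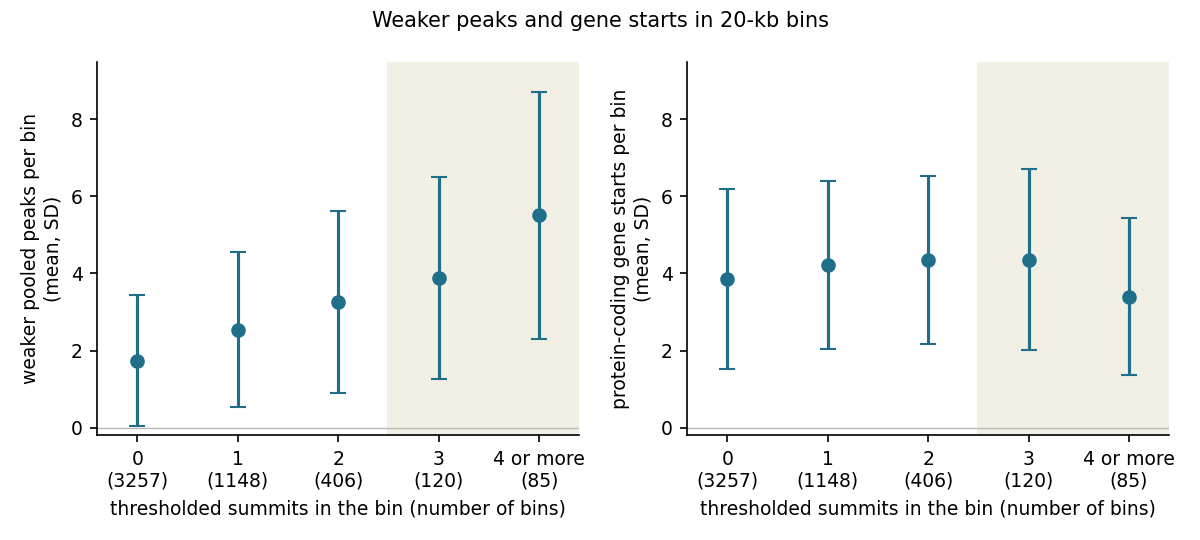
Weaker pooled peaks (left) and protein-coding gene starts (right) per 20000-bp bin, as mean and SD over bins, by the number of thresholded summits in the bin. The shaded classes are dense bins; weaker peaks average 5.51 per bin with 4 or more summits and 1.74 per bin with none, while gene starts average 3.4 and 3.86.

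Dense bins were on all 6 chromosomes. They made up 5.57% of the bins of chromosome I, 4.71% of II, 5.22% of III, 2.06% of IV, 2.58% of V and 5.19% of X. In all, 145 dense bins (70.7%) were in the central 50% of their chromosome, which holds 50% of bins by construction, against 65.8% of bins with 2 summits, 54.4% with 1 and 45.1% with none. The central dense bins were 33 of 42 on I, 29 of 36 on II, 26 of 36 on III, 12 of 18 on IV and 23 of 27 on V. On X they were 22 of 46, so dense bins were not mostly central there. Adjacent dense bins formed 12 pairs and a stretch of 3 bins, which lay on I from 9060001 to 9120000, around mef-2, a MADS-box factor gene. The middle bin of that stretch had 3 summits, with a pair in mef-2 only 200 bp apart that shared a replicate 2 summit. Merging summits closer than a peak width would leave that bin with fewer than 3 and break the stretch.

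The strongest clustered peak was intergenic, on III at 4237912, 4663 bp downstream of the start of F43C1.7, with 727.6 in the pooled list, 355.7 in replicate 1 and 371.5 in replicate 2. Next came the promoter summit of tasp-1, a homologue of the protease taspase, with 645.8 in the pooled list, 325.5 in replicate 1 and 320.7 in replicate 2. At his-37, a histone H4 gene, the promoter summit had 543.5, with 279.1 in replicate 1 and 261.5 in replicate 2. The intergenic peak on X at 16929766, nearest to C30E1.4, had 450.2. Other genes nearest to the 25 strongest clustered peaks included sec-61.G of the protein translocon (322.7), aak-2, a catalytic subunit of AMP-activated kinase (308.3), the Hsp70 cochaperone gene bag-1 (301.1) and lgg-2, an LC3 homologue of autophagy (269.1).

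Clustered peaks had a median pooled signal of 86.4 (54.9 to 727.6), against 82.5 (54.9 to 1107.6) for the other thresholded peaks. Intronic clustered peaks had a median of 86.2, against 75.8 for other intronic peaks. Of the clustered peaks 576 (75.9%, 72.7 to 78.9) held a summit of the 2719 strongest peaks of each replicate, against 71.9% (69.9 to 73.9) of the others. Signals of clustered peaks in the replicates had a Spearman rho of 0.66 over 755 peaks, a description across peaks that share both libraries. When each replicate's own 2719 strongest peaks were binned, replicate 1 gave 228 dense bins and replicate 2 gave 205. They shared 146, which is 64% of those of replicate 1 and 71.2% of those of replicate 2. At least 2 summits from each replicate were in 200 of the 205 dense bins. The thresholded list was itself derived from both replicates, so this count and the 75.9% describe the list and are no independent check.

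**Figure D5:**
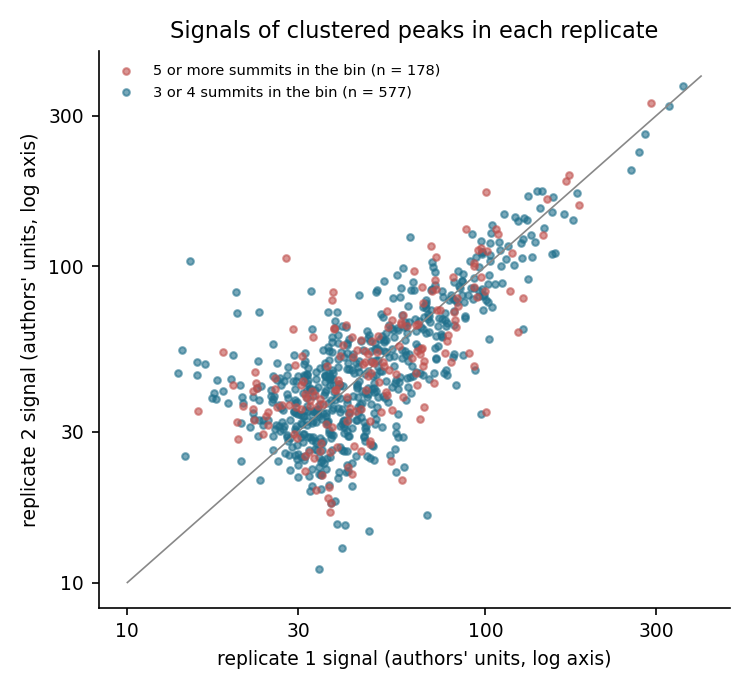
Signal of clustered peaks in replicate 1 and replicate 2 (authors' units, log axes), for the 755 with a summit within 188 bp in both replicates' full lists; the line marks equal values. Red points are peaks in bins with 5 or more summits, blue points those in bins with 3 or 4.

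Where the rule drew its line, bins with exactly 3 summits had a median summed signal of 296 (176 to 733), and bins with exactly 2 a median of 186 (110 to 1229.2). Just inside were the bin of his-37 on V (summed signal 733.3), the bin of rpl-20, a large-subunit ribosomal protein gene, on IV (650.4), the bin of C30E1.4 on X (625.5) and the bin of egg-5 on I (593.7). The strongest summit of the egg-5 bin (351.2) was 574 bp upstream of egg-5 but 43 bp upstream of the noncoding gene sls-2.4. It is the sls-2.4 summit described below. Just outside, with 2 summits each, was the bin of cdc-48.1, an AAA ATPase gene, on II (1229.2), which adjoins the mnk-1 bin. The others were the bins of rpl-3 on III (819.8), of iff-2, an eIF5A homologue, on II (790.3) and of the calmodulin gene cmd-1 on V (563.1).

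Clustered summits were in the promoter window of 315 of 19973 protein-coding genes (1.58%), and any thresholded summit in that of 1654 (8.28%), so the clustered peaks reached 19% of the genes with a promoter summit. Of 66 basic helix-loop-helix and bZIP factor genes, 7 had a clustered promoter summit (10.6%), out of 14 with any. They were jun-1 (224), cebp-1 (209.5), mdl-1, atf-4 (142.4), mxl-3, hlh-30 (71.9) and zip-2 (70.6), with the pooled signal of the strongest in parentheses. At jun-1, a homologue of Jun, replicate 1 had 110 and replicate 2 had 113. At cebp-1, a C/EBP factor gene, replicate 1 had 110.3 and replicate 2 had 100.6.

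Ribosomal protein genes had 11 of 81 with a clustered promoter summit (13.6%), out of 64 with any, so 17.2% of those with a peak were in dense bins, near the 19% over all genes. The strongest was rpl-20, with 499.6 in the pooled list, 267.7 in replicate 1 and 230.2 in replicate 2, from a summit it shared with Y17G9B.5. Among 274 nuclear hormone receptor genes 5 had one (1.82%), out of 20 with any, close to the share of all genes: nhr-1 (139.9), nhr-19 (119.5), nhr-35 (110.7), nhr-21 (77.3) and nhr-17 (61.2). The gene nhr-11 itself had no thresholded and no weaker pooled summit in the bin of its start, and its nearest thresholded summit was 77156 bp away. Of the heterochronic genes 2 of 22 had a clustered promoter summit (9.09%), out of 8 with any, lin-66 (138.6) and lin-14. Muscle genes had 3 of 40 (7.5%), out of 13 with any, act-1 (115.9), tnt-2 (69) and myo-3 (58.4). Histone genes had 3 of 76 (3.95%), out of 8 with any, his-37, his-35 and his-41, of which the last pair share a summit (123.1). No clustered promoter summit was found for 45 genes of Wnt, Notch and TGF-beta signalling, of which 1 had any thresholded one, for 53 of insulin and nutrient signalling, of which 2 had any, or for 124 of neurons, of which 6 had any. The share over all protein-coding genes was 1.58%, so a count of 0 in lists of this length is near the background and is no result about them. Of the first of these lists 5 genes (11.1%) and of the second 4 (7.55%) started inside a dense bin, against 4.07% of all protein-coding genes. Of 1302 chemoreceptor genes 1 had a clustered promoter summit (0.0768%), out of 11 with any. The aak-2 peak given above was outside the promoter window, in an intron 976 bp from the start.

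The remaining lists are given with the share of their genes that had a clustered promoter summit, which was 1.58% over all protein-coding genes. Chaperone genes had 3 of 70 (4.29%), out of 27 with any: hsp-12.6 (87.6), a small heat shock protein, cct-6 (82.8), a subunit of the CCT chaperonin, and dnj-20 (65.3). Vesicle and cytoskeleton genes had 2 of 58 (3.45%), out of 10 with any, the small GTPase gene rab-14 (88.4) and the beta-tubulin gene tbb-1 (61.8). Of 40 translation factor genes 1 had one (eef-1A.1, 298.4), which is 2.5%, out of 15 with any. Of 33 proteasome genes 1 had one (rpt-1, 60.3), which is 3.03%, out of 11 with any. Of 27 GATA and forkhead genes 1 had one (egl-27, 56.9), which is 3.7%, and no other gene of that list had any. Each of these shares rests on 1 to 3 genes. Below the share over all genes were the 175 cuticle collagen genes, with 1 (col-185, 83.4), which is 0.571%, out of 4 with any, and the homeobox genes, with 1 (ceh-20, 75.3), which is 0.99%, out of 3 with any. The col-185 summit was 903 bp upstream of the start and lay inside a tRNA gene. Among genes with any promoter summit the order differed, with a clustered share of 19% over all genes. This share was 11.1% for chaperone, 9.09% for proteasome, 6.67% for translation factor and 20% for vesicle and cytoskeleton genes. It was 25% for collagen, 33.3% for homeobox and 100% for GATA and forkhead genes, from 1 clustered gene each. With or without a summit in the promoter window, 8 chaperone genes (11.4%), 4 proteasome genes (12.1%) and 3 GATA and forkhead genes (11.1%) started inside a dense bin. Of all protein-coding genes 4.07% did.

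Noncoding genes were also near clustered summits. Of all thresholded peaks 27.9% were clustered, and the share of genes with a clustered summit among those with any summit within 500 bp is read against that. The latter share counts genes and not peaks, so genes close together can count a single peak more than once. Within 500 bp of a clustered summit were 14 of 261 miRNA genes, at 12 peaks, out of 25 with any thresholded summit (56%). The strongest was at mir-5549 (298.4), the summit given above for eef-1A.1, and the list also held mir-53 (188.9), mir-54, mir-55 and mir-56 at neighbouring positions on X (164.6 and 159.3), mir-90 (158.3), mir-80 (155.3) and mir-71 (115.9). The genes mir-71 and mir-2 lie within the span of ppfr-1. Of 346 snoRNA genes 20 had a clustered summit, out of 79 with any (25.3%). Of 612 tRNA genes 14 had one, out of 102 with any (13.7%). The 20 rRNA genes had no thresholded summit of either kind. The counts were 10 of 194 for lincRNA genes, out of 29 with any (34.5%), and 5 of 100 for antisense RNA genes, out of 11 with any (45.5%). They were 31 of 15363 for piRNA genes, out of 130 with any (23.8%), which lie close together so that 18 peaks gave all of the 31. Of 2128 pseudogenes 5 had one, out of 27 with any (18.5%).

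Of the snRNA genes 6 had a clustered summit, out of 11 with any (54.5%). This share rests on close pairs of summits. The bins of T11F9.15 and of sls-2.1 to sls-2.4 had exactly 3 summits each, with a pair 200 to 212 bp apart. Merging summits closer than a peak width would leave each of these bins with fewer than 3. The bin of the remaining gene, F38E11.11, had no gap below 1017 bp. The annotation counts among the snRNA genes 4 genes of SL2 RNA, the spliced leader joined to downstream messages of worm operons. Each of the 4 had a summit close upstream of its start, at 62 bp for sls-2.1 (307.2), 40 bp for sls-2.2 (316.9), 32 bp for sls-2.3 (97.4) and 43 bp for sls-2.4 (351.2). At sls-2.1 that summit had 138.9 in replicate 1 and 172.8 in replicate 2, and at sls-2.2 it had 175.6 in replicate 1 and 140.3 in replicate 2. A further summit lay 148 bp downstream of the start of sls-2.1, 167 bp downstream for sls-2.2 and 157 bp downstream for sls-2.4, in each case past the end of the gene. It had 20.13 in replicate 1 and 83.25 in replicate 2 at sls-2.1, where it was not found in both by the rule used here. The values were 102.3 and 58.94 at sls-2.2, and 87.5 and 69.61 at sls-2.4. The 4 SL2 RNA genes are 110 bp long and 90.9% to 97.3% identical to each other. How the authors placed reads that match several copies is not given in the sources used here, so the share of signal that belongs to each copy is uncertain. The same holds for the histone and actin genes named above, which have close copies.

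The windows of sls-2.1 and sls-2.2, from the plus strand of WBcel235, show the sequence under the upstream summits. Capitals mark the bases inside the annotated gene, which the sls-2.1 window does not reach.
sls-2.1 chrII:5844753-5844853: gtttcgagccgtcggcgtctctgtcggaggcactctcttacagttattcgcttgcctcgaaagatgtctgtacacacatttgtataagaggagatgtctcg
sls-2.2 chrII:5543508-5543608: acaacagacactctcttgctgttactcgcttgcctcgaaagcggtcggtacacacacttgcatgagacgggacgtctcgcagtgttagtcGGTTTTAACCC

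Short motifs were searched on both strands in the same windows around every summit. CTCTCTC was in 116 of 759 clustered windows (15.3%) and in 14.6% of the other thresholded windows. In windows centred 350 bp away from clustered summits it was in 2.11% upstream and 1.58% downstream, and in 1.36% of all 992797 windows of that length across the genome. GAGAGAGA, whose matches contain CTCTCTC on the opposite strand, was in 9.09% of clustered and 8.21% of other windows, against 0.664% of all windows. CACGTG, a case of the general E-box CANNTG, was in 6.72% of clustered windows, 5.71% of other windows and 1.67% of all windows. Within promoters it was in 2.99% of clustered windows (8 of 268) and 5.33% of other windows, the reverse order. The shares were 7.76% and 7.23% within introns, and 8.96% and 5.94% in intergenic sequence. The canonical receptor half-site AGGTCA was in 2.77% of clustered windows, 2.6% of other windows and 2.42% of all windows. The CpG run GCGCGC was in 3.43% of clustered windows, 5.77% of other windows and 0.645% of all windows. GGGCGG, the GC box, was in 6.19% of clustered windows, 5.36% of other windows and 1.6% of all windows. The tRNA B box GGTTCGA was in 0.659% of clustered windows, 2.4% of other windows and 0.725% of all windows. Lower in clustered windows than across the genome were the homeobox core TAATTA (1.98% of clustered, 1.38% of other and 4.75% of all windows), AAAAAAAA (4.35% of clustered, 3.98% of other and 12.5% of all windows) and AGTTCA (4.87% of clustered, 3.27% of other and 6.78% of all windows). Shares of clustered and of all windows were 43.2% and 32.2% for CANNTG, 8.04% and 9.35% for the GATA core TGATAA, 4.48% and 4.75% for AAGTCA, and 2.77% and 2.86% for the AP-1 sequence TGANTCA. They were 0.922% and 0.552% for the CRE sequence TGACGTCA, and 2.77% and 1.12% for the forkhead core TGTTTAC. Other thresholded windows had 43.7% for CANNTG, 6.84% for TGATAA, 2.96% for AAGTCA, 2.81% for TGANTCA, 1.12% for TGACGTCA and 2.35% for TGTTTAC. In windows 350 bp upstream and downstream of clustered summits, TGACGTCA was in 0.922% and 0.264%, and TGTTTAC in 2.24% and 1.58%. Clustered windows had a GC content of 45.4 ± 8.08% (mean ± SD over windows), other thresholded windows 46.3 ± 7.65% and windows across the genome 35.4 ± 8.62%. The pooled shares mix promoters, introns and intergenic sequence, which clustered and other peaks hold in different proportions. The parts of base composition and of this mix in these motif shares were not tested.

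These are the 3 strongest clustered peaks on chromosomes II, III, IV, V and X whose windows touch no exon, with a match to CTCTCTC or GAGAGAGA, shown for the position of the repeat beside the summit at the middle of the window. Each is on the plus strand of WBcel235, and capitals mark the matches.
F43C1.7 intergenic chrIII:4237862-4237962: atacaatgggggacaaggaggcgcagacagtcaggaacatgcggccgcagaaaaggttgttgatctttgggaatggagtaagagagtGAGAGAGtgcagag
aak-2 intron chrX:16797013-16797113: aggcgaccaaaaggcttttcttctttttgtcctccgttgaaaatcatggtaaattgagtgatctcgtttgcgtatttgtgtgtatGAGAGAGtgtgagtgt
second nhr-19 intron chrII:9601187-9601287: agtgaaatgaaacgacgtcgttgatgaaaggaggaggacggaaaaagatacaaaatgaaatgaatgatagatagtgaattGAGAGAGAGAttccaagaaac
The repeat was in the right-hand part of each of the 3 windows, the first at the strongest clustered peak of all, the second in an intron of aak-2 (308.3) and the third in the intronic nhr-19 summit of 238.8.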

How the data were processed

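ChIP-seq peak lists of 2 biological replicates were used. The authors called each replicate's list on its own alignments and a further file, and the pooled list on both replicates, per the deposited texts. The thresholded list came from these by irreproducible discovery rate. No source used here names the aligner, the caller, their versions or the rate's threshold. The deposited signal of a peak is the authors' own value, with no stated scale, used here only to describe peaks and order them within one list. Depth is unknown, and intervals cover counting error only.

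Summits were computed from the deposited offset, counting from 1, in ce11. Genes came from Ensembl release 115 for WBcel235. Summits outside promoters were classed, in order of priority, by 5′ UTR, coding exon, 3′ UTR, any remaining exon, intron or intergenic sequence. To be found in a replicate, a peak had to contain the summit of one of the 2719 peaks with the highest signal there. The deposited intervals of 13 clustered and 51 other peaks were shorter than the full width, and some replicate summits fell just outside them, so printed replicate signals are those of the nearest summit within 188 bp in the full lists, a choice made after seeing the data. With it, 8 clustered peaks shared a replicate 2 summit and 6 a replicate 1 summit with a neighbour.

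No statistical tests were made. The clustered peaks, 17 gene lists and 16 motifs were chosen with earlier results of these data known. Named genes were those nearest to the 25 strongest clustered peaks, those of the 12 bins with the most summits, of 4 bins on each side of the line, up to 4 per list and noncoding class, and nhr-11; some are left unnamed for brevity. Genes with several summits along their length, list members past the first 4 and bins chosen for a pattern fall outside that rule and were named after their values were seen. Windows with a CTCTCTC match and the SL2 RNA windows were chosen after their values were seen. Bin and promoter assignment were tested on simulated data. Python 3.11.15, pandas 2.3.3, numpy 2.4.6 and scipy 1.17.1 were used.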

Additional observations from a re-analysis of the deposited data

How the results depend on the processing

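Of 759 clustered peaks in 205 dense bins with 35.3% in promoters, bins of 10000 bp gave 433 peaks in 124 bins with 30.9%, and bins of 40000 bp 1297 in 332 with 42.1%. Asking for 4 summits gave 399 in 85 with 29.8%, for 2 summits 1571 in 611 with 42.3%, and the stronger 1359 peaks, which are fewer, 209 in 62 with 32.1%. Shifting the bins, chaining neighbours, the middle of the peak, build ce10 and merging summits closer than a peak width kept both counts within 1.5 times. Narrower and wider promoter windows gave 27.3% and 49.4%, and the starts of every transcript 46%. In each of these settings that has a promoter share, it was lower in clustered than in other thresholded peaks. Using a single replicate's strongest peaks gave 759 to 835 peaks in 205 to 228 bins with 34.9% to 35.4% in promoters. Replicate 2 gave the same totals as the thresholded list by coincidence: 161 bins and 73 summits were shared. The share found in both replicates, 75.9%, was 99.2% with the full lists and 75.8% with an overlap rule in place of summits. With a summit within 188 bp, added after seeing the data, it was 76%. No paired analysis was possible because there is a single group and no test. Depth, which is unknown, limits which peaks reach the list.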

Other observations

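Of the 759 clustered peaks, 4 had no summit within 188 bp in the full list of a replicate: those nearest to daf-5 (pooled signal 72.6) and T28F4.1 (65.9) in replicate 1, and those nearest to mstr-1 (55.2) and F20B6.10 (55.1) in replicate 2. In the mnk-1 bin, replicate 1 placed 18 of its 2719 strongest peaks and replicate 2 placed 12, against 11 thresholded summits. Over the 205 dense bins the replicates' counts were equal in 80, differed by at most 1 in 173 and differed by 3 or more in 8.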
